A study of Mus musculus with 6 samples.

Results

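The genes described here encode the machinery of lysosomes, of sorting to them, and of autophagy: the subunits of the proton pump that acidifies lysosomes, the cathepsin proteases, the lysosomal membrane proteins LAMP1 and LAMP2, the VPS, CHMP and sorting nexin families, and the numbered ATG proteins. They were chosen by symbol alone, as all genes on the arrays whose name starts with Atp6v, Chmp, or Vps, Snx or Atg followed by a digit, or is Cts with a single letter or Lamp1 to Lamp3. This gave 87 of the 11138 named genes on the arrays. Lamp3 was not among the genes measured.

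Mice were exposed to smoke, which the title of the series calls environmental tobacco, and RNA of their endothelium was hybridised together with that of controls. Each of 6 arrays set a smoke sample, named as channel 1, against a control sample, named as channel 2, and sorting of the cells is stated for the 1-week arrays. For smoke of 1 week there were 3 arrays, of which replicate 1 was a dye reversal, and the age or timing of their control was not stated. For smoke of 6 weeks there were 2 arrays against the 1-week control, with the dyes exchanged between them, and 1 array against a 6-week control. The labels give no organ, mouse strain, sex, age, smoke dose or sorting marker, do not say whether animals were pooled, and do not say which arrays came from separate animals, so the p-values given here refer to the spread between arrays, which may be technical. The number of arrays limits the precision.

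A lysosome is an acidic compartment in which proteins, lipids and other material taken up or discarded by the cell are broken down. A proton pump of the vesicle membrane, the V-ATPase, keeps it acidic, and most cathepsins are proteases that work inside it. Membrane proteins bound for destruction are pinched into endosomes by the ESCRT complexes, while retromer and the sorting nexins send others back, and autophagy wraps parts of the cytoplasm in a membrane that fuses with the lysosome. In endothelial cells this system handles material taken up from blood and the turnover of surface receptors.

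Each value is the deposited log2 ratio of the 2 channels, 0 meaning equal signal. The files do not state which RNA is the numerator or whether the dye-reversed ratios were turned before deposit. Since channel 1 is named as smoke on every array, all 6 arrays were taken as deposited and a positive value is read as likely higher after smoke. A value described as turned is one computed with the sign of a dye-reversed array exchanged. Ratios hold no expression level, so the labelled cell type could not be checked against its markers, and levels cannot be compared between genes. A ratio of bulk RNA also cannot tell apart fewer cells of a type and less RNA per cell.

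Most of the genes were measured by a pair of spots, averaged for each array, and 10 of the 87 had more than 2 spots. Over the 87 genes, the first and second spots had an r of 0.165 on the array where they were least alike and of 0.519 where they were most alike, values that share an array and its processing. Spots lay within 1 log2 unit of each other on all 6 arrays for 41 of the 87 genes, called agreeing spots below, against 50.5% of all named genes. Between the arrays of 1 week, the 87 values correlated at r = 0.259 and r = 0.364 for the dye reversal with the other two, and at r = 0.0507 between those. Over all named genes the same pairs had r of 0.072, 0.103 and 0.148, so the order was not the same. The 6-week array and its dye reversal against the same control correlated at r = 0.0385, and over all named genes at r = -0.030. The 2 dye-reversed arrays, of different exposures, correlated at r = 0.311. Over all named genes that pair had r = 0.272, the highest of all pairs of arrays. Next there came 1-week replicate 2 with the 6-week array against 1-week control, neither dye-reversed, at r = 0.178. Over the 87 genes that pair had r = 0.065. The part of the dye in the values was not tested.

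**Figure D1:**
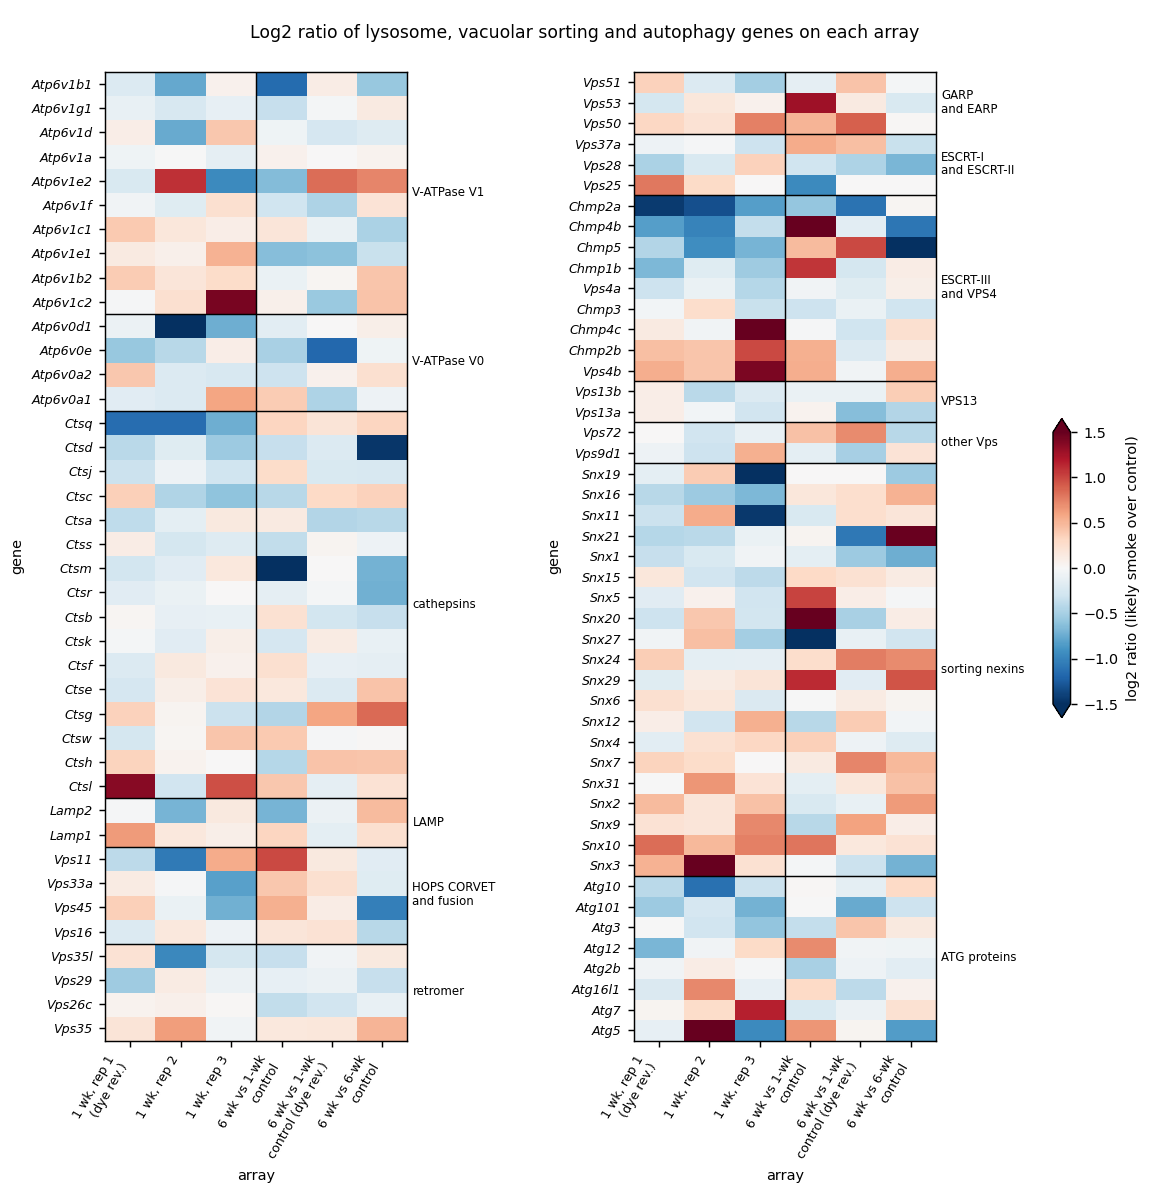
Log2 ratio of each of the 87 genes (rows, grouped by role) on each of the 6 arrays (columns), red for positive and blue for negative, with colours saturating at 1.5 in size. Rows of a single colour are few: 3 genes were positive and 3 negative on all 6 arrays.

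No gene of this machinery passed the test after either exposure, and the group as a whole stayed near 0. After 1 week of smoke, 36 genes had a positive and 51 a negative mean, with a median of -0.059 against -0.0065 over all named genes. After 6 weeks, 47 were positive and 40 negative, with a median of 0.041 against -0.0053. Among genes with a single sign on the 1-week arrays, Chmp2a of the ESCRT-III machinery was negative, and Chmp2b, Vps4b and the sorting nexin Snx10 were positive. The protease gene Ctsd was negative on all 6 arrays.

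Means, standard errors and p-values come from a linear model of limma with a mean for each exposure time, in which the 2 arrays with exchanged dyes count as 1 replicate. There were thus 3 replicates at 1 week and 2 at 6 weeks, and each ± is an SE from a spread pooled over both times. The 2 replicates at 6 weeks had different controls, so smoke time and control cannot be told apart in the 6-week mean. With Benjamini-Hochberg adjustment over 19242 features, 0 of the 87 genes and 0% of all features passed at a threshold of 0.05 at either time. The smallest adjusted p of any of the genes was 0.455 at 1 week and 1 at 6 weeks. An unadjusted p under 0.05 was reached by 10 of the genes at 1 week, 11.5% of them against 6.65% of all features and 7.49% of named genes. Of these 10, 4 were positive and 6 negative, where 3.53% and 3.12% of all features lay. At 6 weeks it was reached by 5, which is 5.75% against 4.12% of all features and 4.03% of named genes. Of these 5, 2 were positive, against 2.18%, and 3 negative, against 1.94%. With the 6-week dye reversal turned it was reached by 4 at 6 weeks, against 3.06% of all features. Limma with robust variance moderation gave 0 passing genes as well, with 10 and 5 at an unadjusted p under 0.05. With both dye-reversed arrays turned, 0 of the genes had an unadjusted p under 0.05 at 1 week, against 3.81% of all features.

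The sign of many means hung on the dye-reversed arrays, and not all of these means were small. That of Ctsl at 1 week went from 0.68 to -0.23 and that of Atp6v0e at 6 weeks from -0.45 to 0.14. With the 6-week dye reversal turned, 23 of the 87 genes took the other sign at 6 weeks, and with the 1-week dye reversal turned 21 did at 1 week. Those at 6 weeks included Atg101, Atp6v0e, Chmp2a, Chmp4b, Vps33a, Vps4a, Vps50, Vps72 and Vps9d1. Those at 1 week included Atg12, Atp6v0e, Ctsl, Lamp1, Snx1, Snx7, Vps16, Vps25, Vps28, Vps29 and Vps53.

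Among genes with agreeing spots, tested in a separate fit, the numbers looked different. At 1 week 102 of 5625 such genes passed, which is 1.81%, but 0 of the 41 genes of this machinery did. Their share with an unadjusted p under 0.05 was 9.76%, below the 14.1% of all genes in that fit. At 6 weeks, where 12.2% of the 41 and 7.77% of all genes in the fit had an unadjusted p under 0.05, 0.213% of the genes in the fit passed and again 0 of the 41. The higher share of the whole group at 1 week was thus not seen among its genes with agreeing spots.

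The signs on single arrays were counted as well. At 1 week 32 of the 87 genes, 36.8%, had 1 sign on all 3 arrays, against 31% of named genes. At 6 weeks there were 22, which is 25.3% against 24.6%. On all 6 arrays 6 genes kept a single sign, 6.9% against 6.86%. The positive ones were Snx10, Vps50 and Snx7, against 3.24% of named genes, and the negative ones Ctsd, Atg101 and Snx1, against 3.62%. A single sign at 1 week and the opposite single sign at 6 weeks was seen for 5 genes, 5.75% against 2.76%, namely Atp6v1e1, Ctsq, Snx16, Snx3 and Vps26c.

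**Figure D2:**
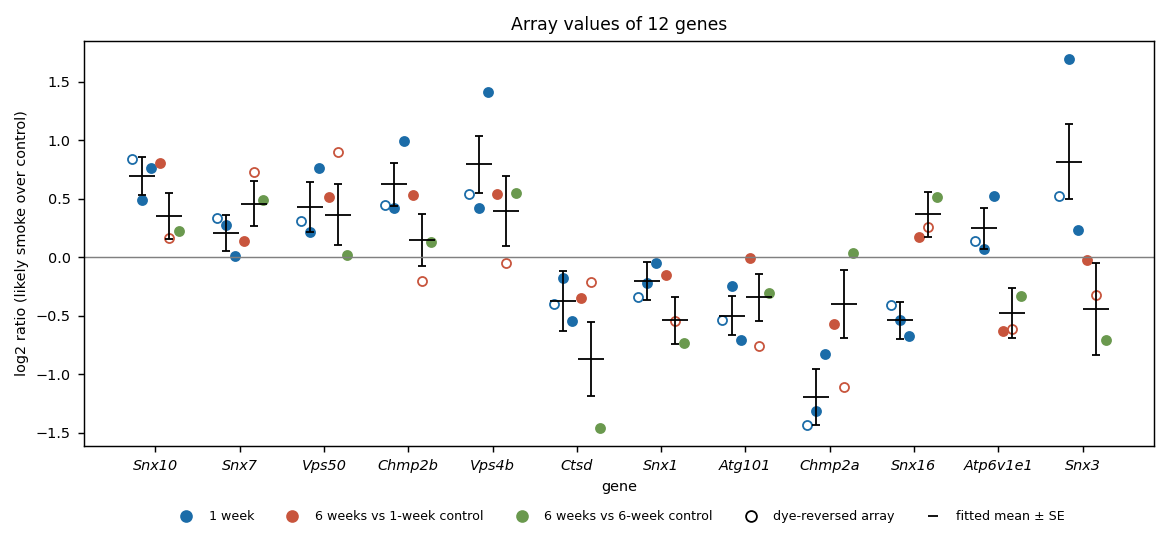
Log2 ratios of 12 genes on each array, with open circles for the dye-reversed arrays and black bars for the fitted mean ± SE at 1 week (left, 3 replicates) and 6 weeks (right, 2 replicates). Snx10, Snx7 and Vps50 lie above 0 and Ctsd, Snx1 and Atg101 below 0 on all 6 arrays, while Snx16, Atp6v1e1 and Snx3 lie on opposite sides at the 2 times.

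The V-ATPase has a soluble V1 sector, which burns ATP, and a V0 sector in the membrane, which carries the protons. The 10 measured V1 genes split evenly at 1 week, 5 positive and 5 negative, with a median of -0.013, and at 6 weeks 4 were positive and 6 negative, with a median of -0.058. None of them had an unadjusted p under 0.05 at either time. Atp6v1a, the catalytic subunit, stayed closest to 0 throughout, between -0.13 and 0.07 on the 6 arrays.

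Atp6v1e1, a subunit of the stalk that holds the 2 sectors together, was represented by 4 spots from 2 different sequence accessions. At 1 week it read 0.14 on the dye-reversed array and 0.072 and 0.52 on the others. After 6 weeks it read -0.64 against the 1-week control, -0.61 on the dye reversal of that array and -0.33 against the 6-week control. The 2 times did not overlap, and the difference of -0.72 ± 0.27 had an unadjusted p of 0.0424 in limma. Its adjusted p was 0.952, so the difference did not pass. On the 2 arrays hybridised with the 1-week control, all 4 spots were negative, between -0.93 and -0.43. With the 6-week dye reversal turned, the 6-week mean moved from -0.48 to -0.17.

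The B subunit, which helps build the catalytic sites, has 2 forms. Atp6v1b2, the widely expressed form, read 0.38, 0.19 and 0.28 on the 1-week arrays, a mean of 0.28 ± 0.17. Atp6v1b1, best known from kidney and other acid-secreting cells, had a mean of -0.31 ± 0.21 at 1 week and -0.55 ± 0.25 at 6 weeks. Its array values ran from -1.16 to 0.11, the extremes being the 2 arrays with exchanged dyes. Neither passed.

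Of the 4 V0 genes, 3 were negative at 1 week, with a median of -0.15. Atp6v0d1, which couples the rotor of the pump to the V1 sector, had the most negative mean of all 87 genes, -1.49 ± 0.68. That mean rested on replicate 2, which read -3.64, while the other 1-week arrays read -0.087 and -0.73. On replicate 2 its spots stood at -1.86 and -5.43, and without that array the mean was -0.41. At 6 weeks its values lay between -0.16 and 0.083. Atp6v0e, a small membrane subunit with spots never more than 0.16 apart, was negative on 5 of 6 arrays: it read -0.57, -0.42 and 0.095 at 1 week. At 6 weeks the values were -0.49, -1.18 on the dye reversal and -0.063 against the 6-week control, a mean of -0.45 ± 0.28 that became 0.14 with the dye reversal turned.

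Many genes of lysosomes carry in their promoter the CLEAR element, which the transcription factors TFEB and TFE3 bind and whose core reads CACGTG. The promoters are shown because this core is a feature of the group that its choice by name did not use. RefSeq promoters of assembly GRCm38.p6, from 250 bases before to 50 bases after the start of the gene, were at hand for 58 of the 87 genes, 63 promoters in all. CACGTG, which reads the same on both strands, occurred in 15 of those 63, or 23.81%, against 7.15% of all 32851 promoters of the same length and 8.85% of the promoters of genes on the arrays. Base composition differed as well: the median GC content was 59.7% in the promoters of the 87 genes, 52.7% in all promoters and 58.3% in those of genes on the arrays. A match is a description and does not show binding. The last 150 bases before the start are given here, 5′ to 3′ on the strand of the gene with CACGTG in capitals, for the 4 genes named under the rule of this report that hold the core in that window.
Lamp1 (chr8:13159011-13159160, plus strand): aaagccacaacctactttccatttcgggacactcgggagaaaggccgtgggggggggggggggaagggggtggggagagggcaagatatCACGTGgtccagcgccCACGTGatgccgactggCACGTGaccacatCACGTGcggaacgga
Ctsd (chr7:142387828-142387977, minus strand): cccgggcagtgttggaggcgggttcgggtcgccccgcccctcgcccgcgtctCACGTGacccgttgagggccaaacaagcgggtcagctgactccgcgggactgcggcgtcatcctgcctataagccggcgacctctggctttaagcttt
Vps33a (chr5:123573016-123573165, minus strand): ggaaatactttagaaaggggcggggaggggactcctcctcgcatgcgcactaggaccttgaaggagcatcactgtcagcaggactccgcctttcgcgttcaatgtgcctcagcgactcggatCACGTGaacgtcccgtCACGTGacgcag
Atg7 (chr6:114670946-114671095, plus strand): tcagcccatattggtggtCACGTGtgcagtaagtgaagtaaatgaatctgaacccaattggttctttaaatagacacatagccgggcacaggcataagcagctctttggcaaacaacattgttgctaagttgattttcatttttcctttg
Lamp1 holds 4 copies of the core within 150 bases of its start, Vps33a 2, and Ctsd and Atg7 1 each. The 15 genes that hold the core had a median log2 ratio of -0.07 at 1 week and 0.038 at 6 weeks, with 9 positive and 6 negative at 6 weeks. The 43 whose promoters lack it had medians of -0.074 and -0.088, with 16 positive and 27 negative at 6 weeks. The difference between these groups was not tested. The 6-week medians became 0.001 and -0.004 with the dye reversal turned. Of the genes with an unadjusted p under 0.05 at 1 week, 0 held the core and 8 lacked it, the others having no promoter in the table.

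Most cathepsins are proteases of the lysosome. By name 16 were measured, including 4 placental forms of rodents and Ctse, Ctsg and Ctsw, which are not typical lysosomal proteases. At 1 week 6 were positive and 10 negative, with a median of -0.076, and at 6 weeks 7 were positive and 9 negative, with a median of -0.064. Ctsd, the aspartic protease that matures other lysosomal enzymes, was the cathepsin with a single sign on all 6 arrays. It read -0.40, -0.18 and -0.55 at 1 week, -0.35 and -0.21 at 6 weeks against the 1-week control, and -1.46 against the 6-week control. The lowest value was that of the array with the matched 6-week control, where both spots were low, at -1.25 and -1.67. Its mean was -0.38 ± 0.26 at 1 week and -0.87 ± 0.32 at 6 weeks, with unadjusted p-values of 0.204 and 0.0378 in limma. With the 1-week dye reversal turned, the 1-week mean was -0.11. With the 6-week dye reversal turned, the 6-week mean was -0.76, with an unadjusted p of 0.0805 in limma. Without the array against 6-week control the 6-week mean was -0.28, and among genes with agreeing spots its adjusted p at 6 weeks was 0.441.

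Of the cysteine cathepsins, Ctsb lay between -0.35 and 0.23 on the 6 arrays, and Ctss, known from antigen-presenting cells, between -0.37 and 0.12. Ctsl was uneven at 1 week, at 1.36 on the dye-reversed array, -0.29 on replicate 2 and 0.97 on replicate 3. Its spots were never more than 0.27 apart, and the mean of 0.68 ± 0.34 did not pass and became -0.23 with the dye reversal turned. At 6 weeks Ctsl had a mean of 0.18 ± 0.41.

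Ctsq, a placental form, had the smallest unadjusted p of all 87 genes at 1 week, 0.00128, with a mean of -1.005 ± 0.16 and array values of -1.14, -1.14 and -0.74. Its spots do not bear out that closeness: they read -2.22 and -0.057 on the dye-reversed array, 1.20 and -3.48 on replicate 2, and 0 and -1.48 on replicate 3. The similar array values thus came from dissimilar spots. Ctsm, another placental form, had a mean of -0.75 ± 0.20 at 6 weeks, an unadjusted p of 0.0113 and spots up to 2.51 apart. It read -1.59 against the 1-week control, 0 on the dye reversal and -0.71 against the 6-week control, and leaving out 1 array moved the mean to -1.15 without the dye reversal and to -0.35 without the array it reverses. Ctsr, a further placental form, was at -0.40 ± 0.23.

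Macrophages are rich in cathepsins, and their marker genes were read beside them. Of 21 measured markers of macrophages and monocytes, 7 were positive and 14 negative at 1 week, with a median of -0.11, and at 6 weeks 3 were positive and 18 negative, with a median of -0.16. On single arrays the medians ran from -0.29 on the 1-week dye reversal to 0.093 on 1-week replicate 2. Lyz2, a lysozyme of myeloid cells, had means of -0.58 and -0.58, while Adgre1, a defining macrophage receptor, had 0.028 and -0.049 and Cd68 0.02 and -0.33. None of the 21 passed at either time in the fit of all features. With the 6-week dye reversal turned, the 6-week median was 0.03, with 11 positive. Of 13 measured endothelial markers, 5 were positive and 8 negative at 1 week, with a median of -0.061. At 6 weeks 4 were positive and 9 negative, with a median of -0.26 that was 0.11 with the dye reversal turned. On all 6 arrays Cldn5, Egfl7, Emcn and Eng were negative, against 3.62% of named genes, and Tek was positive, against 3.24%. Of the 8 with agreeing spots, only Cldn5 passed for the mean of both times (adjusted p = 0.0225 in limma), against 1.83% of genes. With the dye reversals turned, the means of Cldn5 were -0.26 at 1 week and -0.071 at 6 weeks. The part of either list in the values of Ctsd was not tested.

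Lamp1 and Lamp2 encode the most abundant proteins of the lysosomal membrane. Lamp1 was positive on 5 of 6 arrays, at 0.64, 0.16 and 0.091 at 1 week, at 0.32 and -0.15 against the 1-week control at 6 weeks, and at 0.24 against the 6-week control. Its 1-week mean of 0.30 ± 0.18 did not pass and became -0.13 with the dye reversal turned. The spots of Lamp1 were up to 1.39 apart. They had opposite signs on 1-week replicates 2 and 3 and on the 6-week array against 1-week control. Lamp2 had means of -0.19 ± 0.26 and 0.041 ± 0.32. On 1-week replicate 2 it read -0.70 and on the 6-week array against 1-week control -0.69, while the array against 6-week control read 0.47.

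The HOPS and CORVET complexes tether vesicles to endosomes and lysosomes before fusion. The 3 measured genes of these complexes, Vps11, Vps16 and Vps33a, and Vps45, a regulator of fusion at endosomes, had negative 1-week means, from -0.30 for Vps11 to -0.042 for Vps16, but none had a single sign on the 3 arrays. Vps33a, which guides the fusion proteins into place, read 0.12 and -0.021 and, on replicate 3, -0.82, and without replicate 3 its mean was 0.0485. At 6 weeks 2 were positive and 2 negative.

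Retromer recycles receptors from endosomes, and its core is a trimer of VPS26, VPS29 and VPS35. Vps35, read by 4 spots from 2 accessions, was positive on 5 of 6 arrays: 0.19, 0.62 and -0.049 at 1 week, 0.16 and 0.17 against the 1-week control and 0.51 against the 6-week control. Its means were 0.26 ± 0.20 and 0.34 ± 0.24. On the array against 6-week control, spots of 1 accession read 0 and 0 and those of the other 1.01 and 1.05. The subunit Vps29 had means of -0.17 ± 0.19 and -0.23 ± 0.23, the first of which became 0.19 with the dye reversal turned. For Vps35l and Vps26c, which belong to the related retriever complex, the 1-week means were -0.34 and 0.048. None of the 4 had an unadjusted p under 0.05 at either time.

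The GARP and EARP tethers catch vesicles that return to the Golgi and to recycling endosomes. Vps50, the subunit particular to EARP, was positive on all 6 arrays, at 0.31, 0.22 and 0.76 at 1 week, at 0.51 and 0.90 against the 1-week control and at 0.017 against the 6-week control. It was read by 4 spots from 2 accessions, which lay up to 2.08 apart. Its means of 0.43 ± 0.21 and 0.36 ± 0.26 did not pass, and the 6-week mean became -0.088 with the dye reversal turned. Vps51 and Vps53, which both tethers share, had 1-week means of -0.12 and -0.0096.

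The VPS13 proteins move lipids between membranes. Vps13a had a mean of -0.36 ± 0.20 at 6 weeks, which was -0.045 with the dye reversal turned, and Vps13b of -0.17 ± 0.19 at 1 week. Vps72, a chromatin protein that shares only the name, read 0.44 and 0.71 against the 1-week control and -0.42 against the 6-week control, and Vps9d1, also outside the complexes named here, had means of 0.049 and -0.056. None of these 4 had an unadjusted p under 0.05.

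The ESCRT machinery sorts ubiquitinated receptors into vesicles inside endosomes, and its last stage, ESCRT-III, forms the filaments that cut the membrane. This stage held the widest range of 1-week means among the role groups. Of 9 genes of ESCRT-III and its disassembling ATPase VPS4, 3 were positive and 6 negative, with a median of -0.28 and a range from -1.19 to 0.79, and 2 on each side had an unadjusted p under 0.05, where 3.53% of all features were positive and 3.12% negative. At 6 weeks 4 were positive and 5 negative, with a median of -0.016. With the 1-week dye reversal turned, the 1-week median was -0.012.

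Chmp2a encodes a core filament protein of ESCRT-III. It read -1.44 on the 1-week dye reversal, -1.32 on replicate 2 and -0.83 on replicate 3, and its spots were within 0.19 of each other on those arrays. At 6 weeks it read -0.57 and -1.11 against the 1-week control and 0.034 against the 6-week control. The 1-week arrays were thus all low, and at 6 weeks both arrays against the 1-week control were low and the array against the 6-week control was not. Its 1-week mean of -1.19 ± 0.24 had an unadjusted p of 0.00328 and an adjusted p of 0.485 in limma. On the 6-week array against 1-week control the spots were 0.59 and -1.74, which kept the gene out of the test of agreeing spots. In a test of the 1-week arrays alone, over 7374 genes whose spots agreed on them, its adjusted p was 0.0825, while 0.0542% of the genes passed. That test was chosen after the values of Chmp2a were seen. Its 6-week mean of -0.40 ± 0.29 became 0.15 with the dye reversal turned, and its 1-week mean became -0.24 with that of the 1-week array turned.

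The paralog Chmp2b had the opposite sign. It read 0.45, 0.42 and 0.99 at 1 week, a mean of 0.62 ± 0.18 with an unadjusted p of 0.0167. That mean became 0.32 with the 1-week dye reversal turned. The values of Chmp2a and Chmp2b did not overlap on the 1-week arrays. At 6 weeks Chmp2b read 0.53 against the 1-week control, -0.21 on its dye reversal and 0.13 against the 6-week control. The difference between the paralogs was not tested.

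Vps4b and Vps4a encode the 2 forms of the ATPase that takes ESCRT-III filaments apart. Vps4b read 0.54, 0.42 and 1.41 at 1 week, a mean of 0.79 ± 0.24 with an unadjusted p of 0.0201, and its spots were up to 1.66 apart. Vps4a read -0.31, -0.10 and -0.43, a mean of -0.28 ± 0.16. With the 1-week dye reversal turned, the 1-week means were 0.43 for Vps4b and -0.074 for Vps4a. At 6 weeks the means were 0.39 ± 0.30 and -0.016 ± 0.19. Neither passed.

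Of the remaining CHMP genes, 4 had negative means at 1 week, and Chmp4c was at 0.53 ± 0.34 with spots up to 2.65 apart. Chmp1b, a late-acting subunit, was at -0.46 ± 0.18 with an unadjusted p of 0.0439, and the mean was -0.012 with the dye reversal turned. Chmp4b, the main filament protein, was at -0.73 ± 0.40, but at 6 weeks it read 2.10 against the 1-week control and -1.08 against the 6-week control. Chmp5, which regulates the disassembly by VPS4, was at -0.69 ± 0.47, and its spots were 0.20 and -3.73 on the array against 6-week control. Chmp3 stayed near 0 at -0.035 ± 0.18. Of the earlier stages, the ESCRT-I subunits Vps28 and Vps37a and the ESCRT-II subunit Vps25 had 1-week means of -0.12, -0.13 and 0.36, and none of these genes had an unadjusted p under 0.05.

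Sorting nexins bind the lipids of endosomes through a PX domain and steer cargo out of them, and with 20 genes they were the largest of the role groups. At 1 week 11 were positive and 9 negative, with a median of 0.038, and at 6 weeks 14 were positive and 6 negative, with a median of 0.21. Turning the 6-week dye reversal brought this median to 0.088, with 12 positive.

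Snx10, which is needed for acid secretion by osteoclasts, had the largest mean of both times among the genes positive on all 6 arrays, 0.52 ± 0.13. It read 0.84, 0.49 and 0.76 at 1 week, 0.80 and 0.16 at 6 weeks against the 1-week control, and 0.22 against the 6-week control. On the 1-week arrays its spots were within 0.041 of each other. The 1-week mean was 0.69 ± 0.16, with an unadjusted p of 0.00673 in limma. Among genes with agreeing spots its adjusted p was 0.0606 at 1 week and 0.0799 for the mean of both times, the smallest of the 41 genes but above the threshold in both. With the 1-week dye reversal turned, the 1-week mean shrank to 0.14.

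Snx7, of the membrane-bending SNX-BAR branch, was positive on all 6 arrays too, with 0.33, 0.27 and 0.0068 at 1 week and 0.14, 0.73 and 0.48 at 6 weeks, in the same order of arrays. The means were 0.20 ± 0.15 and 0.46 ± 0.19, and with the dye reversals turned they were -0.018 and 0.094. Snx1, a SNX-BAR partner of retromer, was negative on all 6, at -0.34, -0.23 and -0.047 at 1 week and -0.15, -0.55 and -0.74 at 6 weeks. Its 6-week mean of -0.54 ± 0.20 had an unadjusted p of 0.0412 and, among genes with agreeing spots, an adjusted p of 0.507. Without the array against 6-week control that mean was -0.35. Its close relative Snx2 was at 0.36 ± 0.21 at 1 week, with spots no more than 0.32 apart. With the 1-week dye reversal turned, the 1-week means were 0.023 for Snx1 and 0.046 for Snx2. The difference between them was not tested.

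Snx16 and Snx3 lay on opposite sides of 0 at the 2 times. Snx16, of early and recycling endosomes, read -0.41, -0.54 and -0.67 at 1 week and 0.17, 0.25 and 0.52 at 6 weeks, with spots never more than 0.33 apart. The difference of 0.91 ± 0.25 had an unadjusted p of 0.0133 and an adjusted p of 0.952 in limma. With the dye reversals turned, the means of Snx16 were -0.27 at 1 week and 0.24 at 6 weeks. Snx3, which carries the Wnt transporter Wntless with retromer, was at 0.81 ± 0.32 at 1 week, where replicate 2 read 1.69 and the other arrays 0.52 and 0.23. At 6 weeks it read -0.027, -0.33 and -0.71. Without 1-week replicate 2 its 1-week mean was 0.38. With the dye reversals turned, the means of Snx3 were 0.47 at 1 week and -0.28 at 6 weeks.

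At 6 weeks Snx29 and Snx24 had the most positive means, 0.71 ± 0.22 and 0.61 ± 0.22, with unadjusted p-values of 0.0203 and 0.0362. Snx29 read 1.12 against the 1-week control, -0.17 on its dye reversal and 0.94 against the 6-week control, so the arrays with exchanged dyes had opposite signs, and without the first of them the mean was 0.39. Snx24 read 0.26, 0.76 and 0.70, with its 4 spots up to 0.78 apart on these arrays, and its mean became 0.22 with the dye reversal turned. Snx27, which recycles receptors with a PDZ motif, had a mean of -0.72 ± 0.33 that came mainly from the value of -2.20 against the 1-week control, where the dye reversal read -0.11.

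Of the other nexins with a single sign at 1 time, Snx9, which acts in endocytosis at the cell surface, had a mean of 0.37 ± 0.18 at 1 week, and Snx15 had a mean of 0.20 ± 0.22 at 6 weeks. Neither had an unadjusted p under 0.05.

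**Figure D3:**
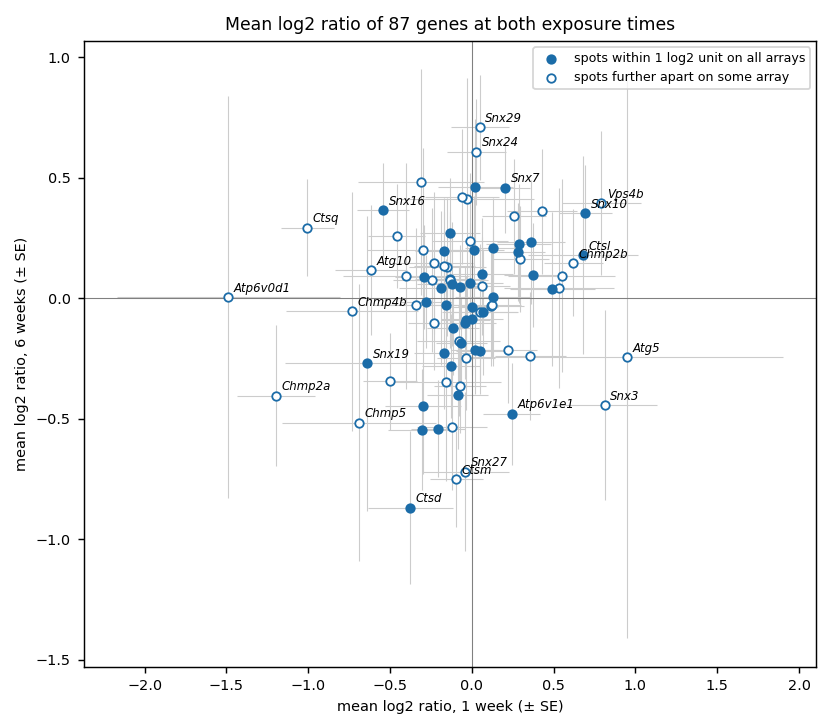
Mean log2 ratio at 1 week (x axis, 3 replicates) against that at 6 weeks (y axis, 2 replicates) for the 87 genes, with SE bars; filled points have agreeing spots. Snx10 and Vps4b lie in the upper right and Ctsd and Chmp2a in the lower left, Chmp2a with a 6-week mean of -0.40 that was 0.15 with the dye reversal turned.

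Autophagy starts with the ULK kinase complex and is carried forward by the conjugation of ATG12 to ATG5 and of LC3 proteins to lipid. Of 8 ATG genes, 4 were positive and 4 negative at 1 week, with a median of -0.066, and 5 were positive and 3 negative at 6 weeks, with a median of 0.021. Atg101, a subunit of the ULK complex, was negative on all 6 arrays. It read -0.54, -0.25 and -0.71 at 1 week, and -0.0056, -0.76 on the dye reversal and -0.31 at 6 weeks. The 1-week mean of -0.50 ± 0.16 had an unadjusted p of 0.0261, and its spots were up to 1.04 apart, just past the limit for agreement. The 6-week mean of -0.34 ± 0.20 became 0.035 with the dye reversal turned.

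The means of the conjugation enzymes had both signs. Atg7, the activating enzyme of both systems, read 0.038, 0.28 and 1.16 at 1 week, a mean of 0.49 ± 0.26 that was 0.16 without replicate 3. Atg10, which transfers ATG12, was at -0.61 ± 0.22 with an unadjusted p of 0.0351, and its spots were up to 2.24 apart. Atg3, which transfers LC3, was at -0.29 ± 0.18. Atg12 and Atg16l1, which join ATG5 in the complex that places LC3, were at -0.15 ± 0.24 and 0.13 ± 0.23, and Atg2b, which moves lipids into the growing membrane, at 0.018 ± 0.15.

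Atg5 had the most positive 1-week mean of the 87 genes, 0.95, with the widest error, ± 0.95. It came from 1 spot: on replicate 2 the spots read 8.19 and -0.33, and the array values were -0.12, 3.93 and -0.96. Without replicate 2 the mean was -0.54. Of the 13 genes whose 1-week mean was over 0.6 in size, 6 had spots within 1 log2 unit on the 1-week arrays: Chmp2a, Chmp2b, Chmp5, Ctsl, Snx10 and Snx19. Over all 87 genes, 53 had such spots. Snx19 among the 6 read -2.15 on replicate 3 and -0.15 and 0.38 on the others. Its spots held identical values on replicates 1 and 3 and read 0 on both 6-week arrays against the 1-week control.

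**Figure D4:**
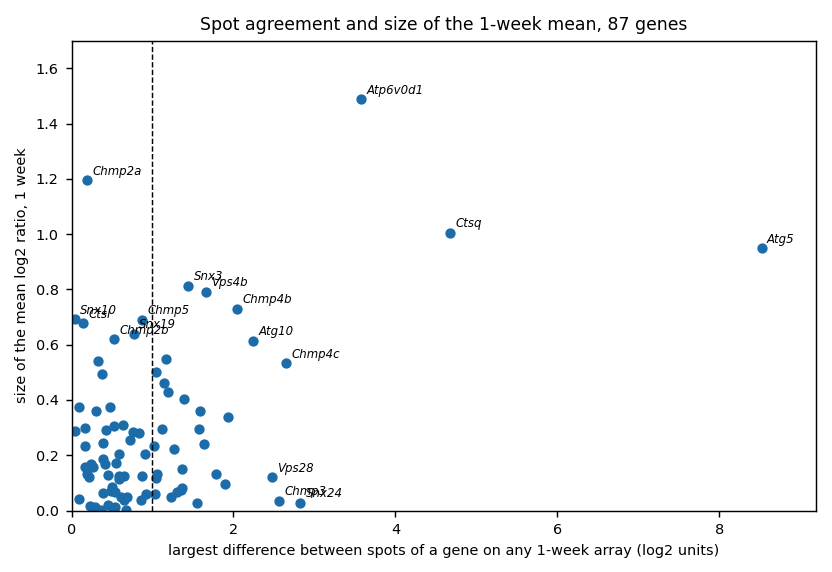
Size of the 1-week mean log2 ratio (y axis) against the largest difference between spots of a gene on any 1-week array (x axis) for the 87 genes, with the dashed line at 1 log2 unit. Atp6v0d1, Ctsq and Atg5 combine a large mean with spots 3.58, 4.68 and 8.52 apart, whereas Chmp2a has spots 0.19 apart.

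Other genes of the pathway, outside the name rule, were read from a list of lysosomal enzymes, membrane proteins, adaptors and autophagy factors, of which 103 of 139 were measured. At 1 week 49 were positive and 54 negative, and 9 positive and 5 negative ones had an unadjusted p under 0.05, against 3.53% and 3.12% of all features. At 6 weeks 43 were positive and 60 negative, and 3 and 4 had such a p, against 2.18% and 1.94%. None passed over all features. Among the 53 with agreeing spots, 5 passed at 1 week, 3 positive and 2 negative, against 1.81% of all genes in that fit. The list was drawn up with earlier results of these data known, so this count is not independent evidence.

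Ist1, an ESCRT-III-like regulator of VPS4, read 0.96, 1.08 and 1.47 at 1 week, a mean of 1.17 ± 0.20 with an adjusted p of 0.0193 among genes with agreeing spots in limma, and -0.13, -0.53 and 0.23 at 6 weeks. Mfsd8, a lysosomal transporter, read 1.42, 1.83 and 1.32, a mean of 1.53 ± 0.17 with an adjusted p of 0.00519, and its 6-week mean was 0.31 ± 0.21. Nbr1, an autophagy receptor, read 1.06, 1.30 and 1.16, a mean of 1.17 ± 0.19 with an adjusted p of 0.0193. Gabarap, an LC3-like protein of the autophagosome, read -0.63, -1.15 and -0.84 at 1 week, a mean of -0.87 ± 0.19 with an adjusted p of 0.0437. Tecpr1, which binds ATG proteins on autophagosomes and lysosomes, read -0.48, -1.16 and -1.20, a mean of -0.95 ± 0.21 with an adjusted p of 0.0418, and it was negative on the 6-week arrays too, at -0.40, -0.40 and -0.68.

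Each of these 5 calls was lost when a single array was left out. Without 1-week replicate 3 none of the 5 passed, and only 1 gene of the whole fit did. Without 1-week replicate 2 only Mfsd8 passed, with an adjusted p of 0.0493. Gabarap lost its call without the 1-week dye reversal (adjusted p = 0.0579), without the 6-week array against 1-week control (0.0947) and without the array against 6-week control (0.0932). Tecpr1 lost it without any of the 6-week arrays, with adjusted p from 0.0557 to 0.113, and with the 6-week dye reversal turned (0.0745), and Ist1 without the array against 6-week control (0.056). With both dye-reversed arrays turned, all 5 kept their sign, but the means shrank to 0.58 for Mfsd8, 0.47 for Nbr1, 0.53 for Ist1, -0.45 for Gabarap and -0.63 for Tecpr1, and none passed.

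The accessory subunits of the proton pump had positive means at 1 week. Atp6ap2 read 0.62, 0.51 and 0.82, a mean of 0.65 ± 0.20 with an unadjusted p of 0.0212, and at 6 weeks 0.059, 0.44 and 1.00. Atp6ap1 was at 0.40 ± 0.15, with an unadjusted p of 0.0408. Neither passed over all features, and with the 1-week dye reversal turned the means were 0.24 for Atp6ap2 and 0.22 for Atp6ap1. The spots of Atp6ap1 were up to 1.04 apart. Lamtor3, part of the complex that anchors mTORC1 to lysosomes, was at 0.85 ± 0.18 at 1 week, with spots up to 1.36 apart. Its mean became 0.45 with the 1-week dye reversal turned. Lamtor1, Lamtor2 and Lamtor5 of that complex had 1-week means of -0.078, -0.24 and -0.26. Asah1, the lysosomal ceramidase, was positive on all 6 arrays. Its means were 0.70 ± 0.17 at 1 week and 0.70 ± 0.21 at 6 weeks, with spots up to 1.24 apart. With the dye reversals turned those means were 0.16 and 0.62. At 6 weeks Manba, a lysosomal mannosidase, was at -0.85 ± 0.22 and Vamp8, a fusion protein of autophagosomes, at -0.96 ± 0.29, both without passing. The spots of Manba were up to 1.43 apart, and its mean became -0.42 with the 6-week dye reversal turned.

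The exposures were also compared with each other. Because the 6-week mean joins arrays against 1-week and 6-week controls, smoke time and control cannot be told apart in these comparisons. For the difference between 6 weeks and 1 week, 5 of the 87 genes, or 5.75%, had an unadjusted p under 0.05, against 3.55% of all features, and 0 passed with adjustment, as did 0% of all features. The share among named genes was 3.38%. The 5 were Ctsq, Snx16 and Chmp1b, which were higher at 6 weeks, where 1.72% of all features lay, and Atp6v1e1 and Ctsm, which were lower, where 1.83% lay. For the mean of both times, 12 genes, or 13.8%, had an unadjusted p under 0.05, against 6.31% of all features and 7.44% of named genes. Of these 12, 5 were positive, against 3.2%, and 7 negative, against 3.12%. Again 0 passed, with a smallest adjusted p of 0.588 among the genes, and among genes with agreeing spots 0 of 41 passed against 1.83%. Limma with robust variance moderation also gave 0 for both. With the 6-week dye reversal alone turned, 7 genes, or 8.05%, had an unadjusted p under 0.05 for the difference, against 3.29% of all features. For the mean of both times 9 did, or 10.3% against 5.11%. With both dye-reversed arrays turned, 1 gene had such a p for the difference, against 2.06% of all features, and 1 for the mean of both times, against 4.32%.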

How the data were processed

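The members of the group, the lists and the alternatives were chosen with earlier results of these data known. Each of the 6 arrays came with a table of 32448 features and their log2 ratios as the authors deposited them. Scanner, background correction, normalization, dyes and numerator are not given in the sources used here. From the values, the deposited log2 ratios are folds in whole hundredths, within 0.02 of a hundredth, for at least 99.99% of values on every array.

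A probe table named 24344 features with 1 symbol, 98 with several, and did not list 8006. Entrez identifiers matched 24076 features to the RefSeq gene table of GRCm38.p6, which changed 0 symbols. Each array was centred on its median, and spots of a symbol were averaged, different accessions alike, giving 11138 named genes. The other 8104 features were tested singly, for 19242 tests. All signs were kept as deposited. This departs from an earlier treatment that turned the 6-week dye reversal on a correlation near 0, and that sign is an alternative here.

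The linear model used limma 3.58.1 (lmFit, then eBayes) under R 4.3.3 and had 3 residual and 2.39 prior degrees of freedom. The model had no term for dye or control. The code was tested on simulated data. Genes with agreeing spots (5625) formed a separate fit. For each time, the rule named up to 10 genes of each sign with 1 sign on the time's arrays and the largest means, the gene with the smallest p in each role, up to 5 genes of each sign with 1 sign on all 6 arrays, and 5 by the p of the difference. Genes of the pathway list were named where they passed, or otherwise by the 4 smallest p of a time. Other genes described here, among them Atg5, Ctsl, Ctsb, Ctss, Vps4a, Lamp2, Snx19, Atp6ap1, Atp6ap2 and Lamtor3, were chosen after their values were seen. Promoters came from a RefSeq table for GRCm38.p6. Of the alternatives, 16 were listed at the start and 2 were added after seeing the data.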

Additional observations from a re-analysis of the deposited data

Results flagged for a closer look

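For 5 of the 87 genes every array of 1 exposure had one sign and every array of the other exposure the opposite sign, 5.75% of them against 2.76% of all named genes. The differences between 6 weeks and 1 week were -0.72 for Atp6v1e1, 1.30 for Ctsq, 0.91 for Snx16, -1.26 for Snx3 and -0.27 for Vps26c, in mean log2 ratio. With the 6-week dye reversal turned, these genes no longer have a single sign at 6 weeks, since the turn gives 1 of the arrays the other sign. Limma's test of each difference gave unadjusted p-values of 0.0424, 0.00331, 0.0133, 0.0522 and 0.301 in that order, and after Benjamini-Hochberg adjustment over all features none passed, the smallest adjusted p being 0.952. Atp6v1e1, Snx16 and Vps26c had agreeing spots, while the spots of Ctsq and Snx3 lay up to 4.68 and 1.44 apart.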

How the results depend on the processing

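Under the 16 alternatives listed at the start and the 2 added after seeing the data, 0 genes of the group passed in every comparison that was fitted. The medians of the group were small under all of them. At 1 week the median was -0.059, and it was -0.018 with both dye-reversed arrays turned, -0.031 with both left out, -0.054 with arrays scaled to one spread and -0.052 with quantile normalization. It was -0.065 with the median of spots, -0.036 among genes with agreeing spots under either sign of the 6-week dye reversal and -0.038 for the 1-week arrays alone with spots agreeing on them. Leaving out each array gave -0.059 to -0.031. At 6 weeks the median was 0.041, and it was 0.0087 with the 6-week dye reversal turned and with both turned, 0.0089 with both left out, -0.0023 with the dye swap kept as 2 replicates, 0.0046 with the median of spots and 0.0041 among genes with agreeing spots. Leaving out each array gave -0.022 to 0.041, so the sign of this median is not settled.

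With the 6-week dye reversal turned, alone or with the other, 23 of the 87 genes took the other sign at 6 weeks. Among the results named by rule at that time, Atg101 became 0.035, Atp6v0e 0.14, Chmp2a 0.15, Vps50 -0.088 and Vps72 -0.28. Atp6v0e had that value among genes with agreeing spots too. With both turned, 21 took the other sign at 1 week, and among the results named by rule at that time Lamp1 became -0.13 and Vps25 -0.17 at 1 week. Leaving out each array gave -0.42 to 0.0485 for Vps33a at 1 week, positive without 1-week replicate 3, and -0.45 to 0.32 for Vps45 at 6 weeks, positive without the array against 6-week control. The cause was not tested beyond the turn itself, which sets the turned values. The count of genes with an unadjusted p under 0.05 at 1 week, 10, became 5 without 1-week replicate 3 (5.75% against 4.89% of all features), 4 without both dye-reversed arrays (4.6% against 5.71%) and 0 with both turned (against 3.81%). The 6-week count, 5, became 2 without the array against 6-week control (2.3% against 6.09%). No paired analysis was possible because the labels give no replicate numbers that tie samples across groups; each value is already a ratio of a smoke and a control sample, and the replicate numbers used here follow accession order.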
